A study of Arabidopsis thaliana with 12 samples.

Results

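CHLM, CHLP and SIRB encode plastid enzymes of tetrapyrrole metabolism, the route that makes chlorophyll, haem and sirohaem. The 3 genes were found by symbol or locus among the 692 array probes that name a single gene (691 genes), out of 3439 probes in all, and each is measured by 1 probe. CHLM (AT4G25080) is magnesium-protoporphyrin IX methyltransferase, which acts just after magnesium is inserted, at the start of the chlorophyll branch. CHLP is the locus AT1G74470, geranylgeranyl reductase, which reduces the geranylgeranyl chain to the phytyl tail of chlorophyll and also serves tocopherol synthesis. SIRB (AT1G50170) is sirohydrochlorin ferrochelatase, which inserts iron to make sirohaem, the cofactor of nitrite and sulfite reductases.

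Tetrapyrroles are built along a common trunk from glutamyl-tRNA. Sirohaem leaves the trunk at uroporphyrinogen III, and the chlorophyll and haem branches part later, at protoporphyrin IX. Free intermediates of the chlorophyll branch are photosensitisers that give singlet oxygen in light, and the pathway is known to be held in close balance with light in green tissue. CHLM and SIRB therefore stand on branches that draw on the same precursor, while CHLP joins the chlorophyll branch at its end, through the isoprenoid tail.

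The samples are total RNA of wild-type Arabidopsis thaliana of the ecotype Columbia 0, with 6 arrays labelled as 1000 µE for 1 h (high light) and 6 labelled as 80 µE at 0 h (normal light). There is no sample held at 80 µE for that hour, so light and elapsed time cannot be told apart. The labels give no tissue, age or culture, and nothing says that the 6 samples of a group come from separate plants. A p-value here is thus set by sample-to-sample spread that could be technical only. Fewer cells of a type and less RNA per cell cannot be told apart in such samples. Of 20 leaf photosynthesis genes listed as a check of green tissue, 4 had a probe of their own (PSAN, PSBY, LHB1B2 and PSBW). Their mean place among the probes of a sample lay between the 84.1th and the 99.8th percentile in high light and between the 93.0th and the 99.5th in normal light.

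The deposited intensities, in an arbitrary linear unit, were not on a common scale between the groups. The median probe of a sample stood at 0.338 to 0.357 in high light and at 0.115 to 0.130 in normal light, and 167 to 209 probes per sample were listed at 0 in high light against 396 to 470 in normal light. Each gene is therefore given as deposited, by its place among all probes of its sample, and after quantile normalisation, which gives every array the same distribution of values. A log2 change below is high light minus normal light after quantile normalisation unless another scale is named. The brightness of a probe depends on the probe as well as on the RNA, so the levels of the 3 genes are not compared with each other.

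As deposited, the intensities of CHLM and SIRB were nearly alike in the groups, while the median of all probes changed by 1.47 (log2). Ranked among all probes of their sample, CHLM averaged the 32.7th percentile in high light and the 63.1th in normal light, and SIRB the 19.3th and the 48.1th. CHLP averaged the 93.9th and the 93.3th. After quantile normalisation, limma called 2 of the 3 genes lower at an adjusted p under 0.05, CHLM and SIRB, and none higher. Over all 3439 probes, 22.0% were called lower and 15.8% higher.

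CHLM had deposited intensities of 0.118, 0.213 and 0.348 (lowest, median and highest) in high light, against 0.129, 0.221 and 0.253 in normal light. The ranges overlapped, and both the lowest and the highest of the 12 values belonged to high light samples (numbers 2 and 5). The means were 0.218 ± 0.0807 in high light and 0.205 ± 0.0464 in normal light (SD, n = 6 each). In relation to its own sample's median probe, CHLM stood at 0.626 ± 0.231 times that median in high light and at 1.67 ± 0.444 times in normal light. On average it thus lay below the typical probe in high light and above it in normal light. The exceptions were high light sample 5, at 1.00 times its median, and normal light sample 6, at 0.990 times.

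Among all probes of its sample, CHLM ranked at the 16.6th, 33.5th and 50.0th percentile in high light (lowest, median and highest), against the 49.7th, 64.8th and 71.8th in normal light. The groups met in a single pair of samples, since high light sample 5 ranked just above normal light sample 6, and the other 5 high light samples lay below every normal light sample. The quantile-normalised intensity averaged 0.140 ± 0.0619 in high light and 0.363 ± 0.0874 in normal light (SD, n = 6 each). CHLM fell by 1.46 on the log2 scale (SE 0.316, limma adjusted p = 0.0034), to 0.362 times its normal light level, with a 95% interval of -2.16 to -0.77. An exact 2-sided permutation test of the same difference gave p = 0.0043. The spread between replicates was wider in high light, with an SD of 0.69 on the log2 scale, than in normal light, with 0.37; this difference in spread was not tested.

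The CHLM call was kept or lost according to how neighbouring samples were counted. Samples 1 and 2, 3 and 4, and 5 and 6 of a group were on average more alike than others. Their mean correlation across probes was 0.713, against 0.613 for other pairs of the same group. The ranges overlapped, at 0.571 to 0.882 against 0.450 to 0.771. With those pairs averaged, the fall of CHLM stayed at 1.46 on the log2 scale but its limma adjusted p of 0.071 missed the threshold, while that of SIRB was 0.027. In that comparison of 3 with 3, 12.5% of probes were called lower. With the same pairs as a random block in a fit of all 12 samples, both genes stayed called. CHLM stood at -1.46 (limma adjusted p = 0.0084) and SIRB at -1.78 (limma adjusted p = 0.0094). In that fit 650 of the 3439 probes were called lower. Averaged by pair, the quantile-normalised CHLM intensity was 0.0782, 0.143 and 0.200 in high light, against 0.454, 0.332 and 0.305 in normal light, each in the order of the sample numbers. The pairs of the groups did not overlap, but the share of all probes for which that holds was not counted. As single samples, 30.7% of all probes did not overlap after quantile normalisation, and CHLM did. No weight is therefore placed on the separation of the pairs.

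**Figure D1:**
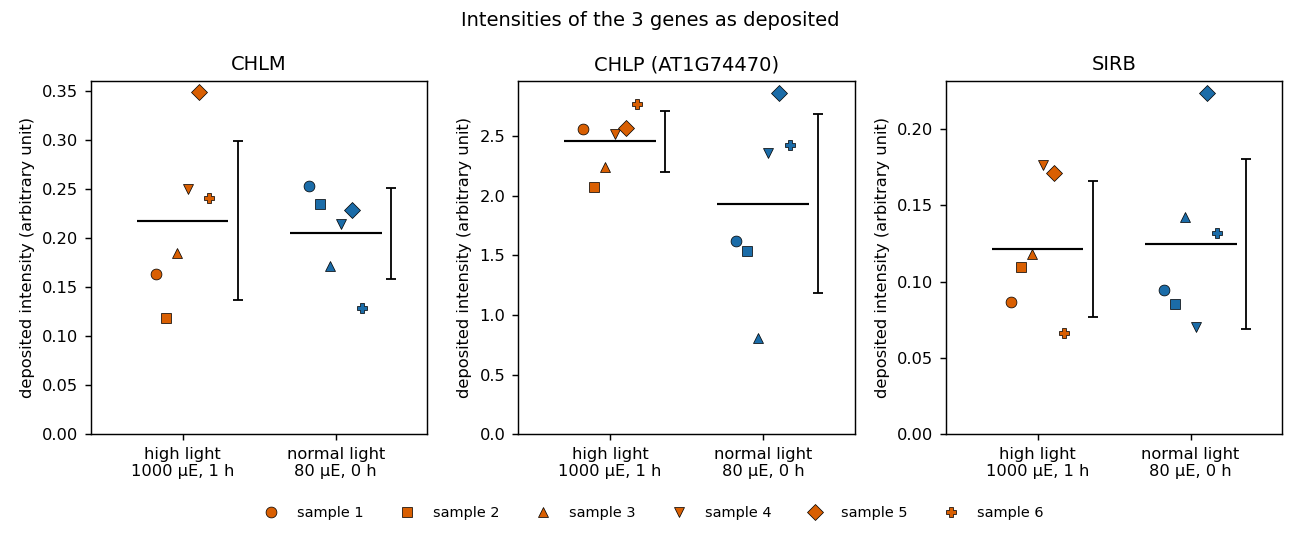
Deposited intensity (arbitrary linear unit) of CHLM, CHLP and SIRB in each of the 12 samples, high light on the left and normal light on the right of each panel. Symbols mark the sample number, horizontal bars the mean and the bracket the SD (n = 6 per group). In all 3 panels the ranges of the groups overlap, with CHLM at 0.118 to 0.348 in high light and 0.129 to 0.253 in normal light.

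SIRB had deposited intensities of 0.0663, 0.114 and 0.176 (lowest, median and highest) in high light, against 0.0705, 0.113 and 0.223 in normal light. The medians were nearly equal and the ranges overlapped over most of their length. The means were 0.121 ± 0.0443 in high light and 0.125 ± 0.0557 in normal light (SD, n = 6 each). No sample listed it at 0. Against its sample's median probe, SIRB stood at 0.350 ± 0.130 times that median in high light and at 0.995 ± 0.410 times in normal light.

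By rank the groups parted. SIRB lay at the 12.2th, 17.3th and 28.0th percentile of its sample in high light (lowest, median and highest), against the 34.8th, 47.4th and 64.9th in normal light. All 6 high light samples ranked below all 6 normal light samples. SIRB was the only one of the 3 genes whose quantile-normalised groups did not overlap, as was so for 30.7% of all probes. Its quantile-normalised intensity averaged 0.0722 ± 0.0355 in high light and 0.233 ± 0.0784 in normal light (SD, n = 6 each). SIRB fell by 1.78 on the log2 scale (SE 0.345, limma adjusted p = 0.0018), to 0.292 times its normal light level, with a 95% interval of -2.54 to -1.01. The exact 2-sided permutation test gave p = 0.0022, the smallest that 6 against 6 samples can give.

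**Figure D2:**
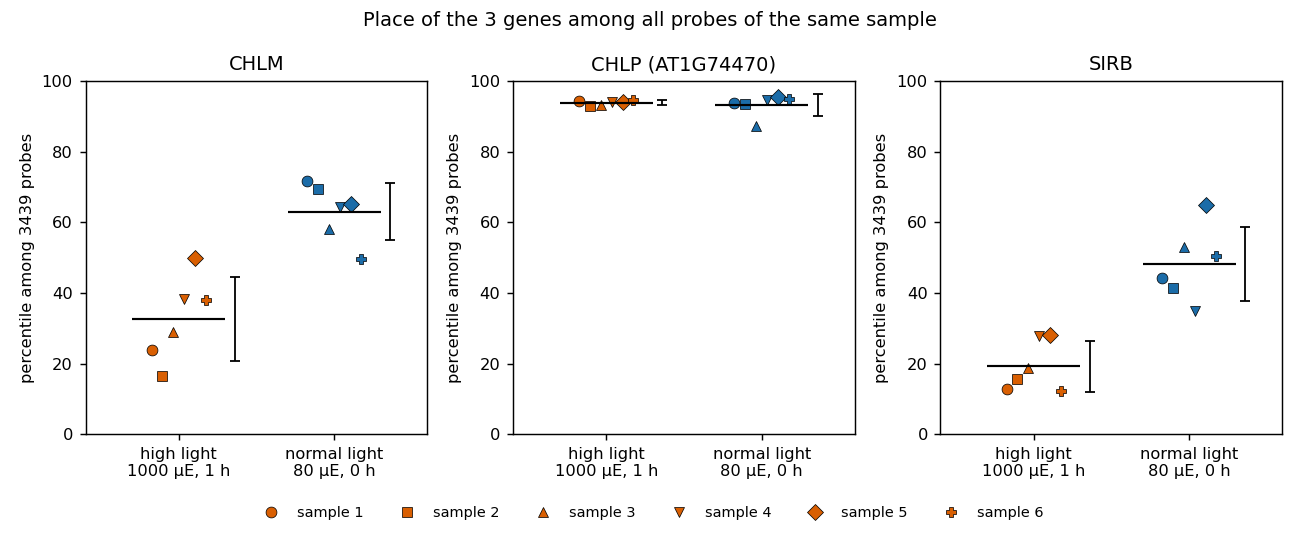
Place of each gene among the 3439 probes of the same sample, high light on the left and normal light on the right. The percentile is low for dim probes, and tied probes share their mean rank. Symbols, bars and brackets are as for the deposited intensities. SIRB does not overlap between the groups (12.2 to 28.0 in high light, 34.8 to 64.9 in normal light). On quantile-normalised values that is so for 30.7% of all probes. CHLM meets in a single pair of samples, and CHLP stays between 87.2 and 95.6 in all 12 samples.

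CHLP had deposited intensities of 2.08, 2.54 and 2.77 (lowest, median and highest) in high light, against 0.809, 1.99 and 2.86 in normal light. The high light samples lay close together, with a coefficient of variation of 10.3%, while the normal light samples varied by 38.7%. The means were 2.46 ± 0.252 in high light and 1.94 ± 0.749 in normal light (SD, n = 6 each). Normal light sample 3 was the lowest of the 12, at 0.809, and numbers 1 and 2 of that group, at 1.62 and 1.53, lay below every high light sample as well. The other 3 normal light samples, at 2.36 to 2.86, lay within or just above the high light range.

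Ranked within its sample, CHLP lay at the 93.0th, 94.1th and 94.5th percentile in high light (lowest, median and highest), against the 87.2th, 94.3th and 95.6th in normal light. Its quantile-normalised intensity averaged 2.15 ± 0.224 in high light and 2.17 ± 0.648 in normal light (SD, n = 6 each). The log2 change of CHLP was 0.049 (SE 0.227, limma adjusted p = 0.87), which did not pass the test, with a 95% interval of -0.45 to 0.55. The interval leaves room for changes of that size in either direction. Without normal light sample 3 the change was -0.15 (adjusted p = 0.38), so the sign of this small change rests on that sample. Its replicate SD on the log2 scale was 0.15 in high light and 0.53 in normal light.

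Whether the 3 genes changed unequally was compared with the log2 ratio of 1 gene to another within the same sample, which no factor applied to a whole array can alter. On deposited values the CHLM to CHLP ratio had a mean of -3.57 ± 0.449 in high light and -3.16 ± 0.745 in normal light, a difference of -0.41 (95% interval -1.201 to 0.38). The CHLP to SIRB ratio differed by 0.46 (95% interval -0.48 to 1.403) and the CHLM to SIRB ratio by 0.052 (95% interval -0.84 to 0.94). None of these 3 differences passed an exact 2-sided permutation test (p = 0.28, 0.30 and 0.896, or 0.45, 0.45 and 0.896 after Benjamini-Hochberg adjustment over the 3 pairs). The intervals do not show that the genes changed alike. After quantile normalisation, which rescales bright and dim probes by different factors, the CHLM to CHLP ratio differed by -1.51 and the CHLP to SIRB ratio by 1.82, both with an adjusted exact p of 0.0065, and the CHLM to SIRB ratio differed by 0.31 (adjusted exact p = 0.45). CHLM and SIRB were not told apart on either scale, and CHLP was told apart from both after quantile normalisation.

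The scaling between arrays decided how far each gene seemed to move. On the deposited scale none of the 3 genes was called, where 55.0% of all probes were: the log2 changes were 0.038 for CHLM (limma adjusted p = 0.91), -0.013 for SIRB (0.98) and 0.45 for CHLP (0.18). Their 95% intervals there ran from -0.56 to 0.63 for CHLM, from -0.74 to 0.71 for SIRB and from -0.16 to 1.06 for CHLP. With every column divided by its median, CHLM, SIRB and CHLP were all called lower, at -1.45, -1.503 and -1.04 (limma adjusted p = 0.0016, 0.0030 and 0.011), where 26.5% of all probes were. CHLP, at 7.06 ± 0.684 times its sample's median probe in high light and 15.5 ± 5.62 times in normal light, thus fell on that scale only of the 4 tried. With cyclic loess, CHLM and SIRB fell by 1.32 and 1.58 on the log2 scale (limma adjusted p = 0.0039 and 0.0031), where 20.4% of all probes were called lower, and CHLP stood at 0.16 (0.65).

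**Figure D3:**
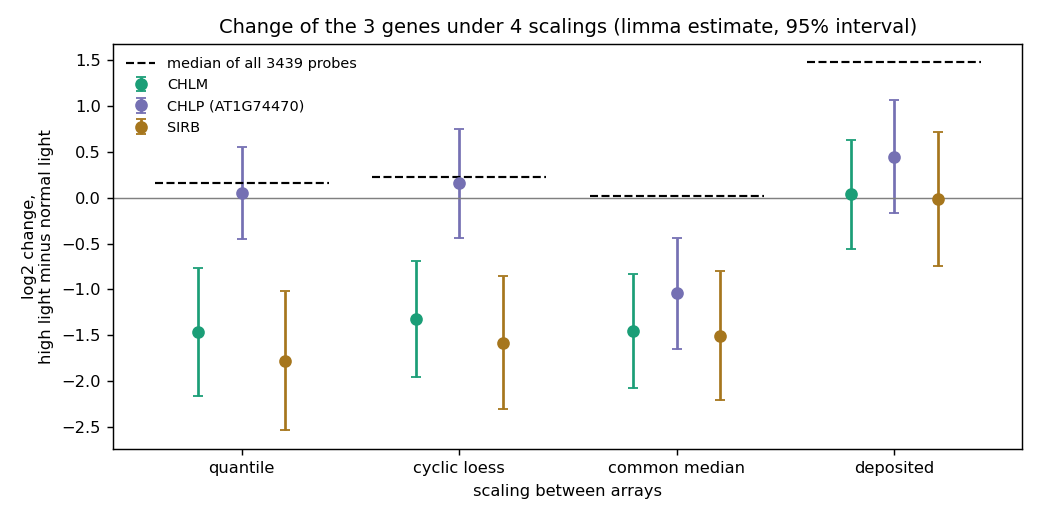
Log2 change (high light minus normal light) of CHLM, CHLP and SIRB under 4 scalings between arrays, with limma's 95% interval; the dashed line is the median change of all 3439 probes under that scaling. CHLM and SIRB lie below the dashed line in each (at 0.038 and -0.013 against 1.47 as deposited), and CHLP lies near it with quantile normalisation (0.049 against 0.16) and cyclic loess.

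Of 66 genes in 6 lists of tetrapyrrole and phytyl metabolism, 6 had a probe of their own, and another 6 were on probes that name several genes and were not used. No gene of the haem and bilin branch or of chlorophyll breakdown was measured singly. Of the 6, 2 rose, 2 fell (CHLM and SIRB) and 2 did not pass the test, where 15.8% of all probes were called higher and 22.0% lower. The median log2 change of the 6 was 0.11, and that of all probes 0.16. The tally followed the scaling: on the deposited scale 3 of the 6 were called higher (HEMA3, AT5G63290 and AT1G78620) and 0 lower, where 49.4% of all probes were called higher. With a common median 1 was called higher (AT5G63290) and 4 lower (HEMA3 and the 3 genes above), where 11.4% of all probes were called higher and 26.5% lower. Besides the 3 genes above, these were HEMA3, AT5G63290 and AT1G78620.

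HEMA3 belongs to the glutamyl-tRNA reductase family, which catalyses the first committed step of the trunk. Its deposited intensities were 1.31, 1.497 and 1.57 (lowest, median and highest) in high light, against 0.598, 0.730 and 1.65 in normal light. The highest of the 12 was normal light sample 5, and the other 5 normal light samples lay below all those of high light. The log2 change was 0.17 (SE 0.188, limma adjusted p = 0.49), not past the threshold. On the deposited scale it was 0.86 (adjusted p = 0.0082) and with a common median -0.63 (adjusted p = 0.045), so both a rise and a fall were called, depending on the scaling.

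AT5G63290 was listed with the trunk as HEMN, and AT1G78620 with phytyl supply and use as VTE6. The gene table used here gives neither a name, so no role is stated for them. AT5G63290 had deposited intensities of 0.751, 0.982 and 1.11 (lowest, median and highest) in high light, against 0.150, 0.184 and 0.228 in normal light. AT1G78620 had 1.41, 1.68 and 1.88 in high light, against 0.373, 0.403 and 0.662 in normal light. Neither gene's groups overlapped, as deposited or after quantile normalisation, as was so for 48.0% and 30.7% of all probes. AT5G63290 rose by 1.16 (SE 0.167, limma adjusted p = 2.4e-04) and AT1G78620 by 1.04 (SE 0.130, limma adjusted p = 9.5e-05). With a common median AT5G63290 stayed called, at 0.91, and AT1G78620 was not, at 0.42 (adjusted p = 0.062).

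**Figure D4:**
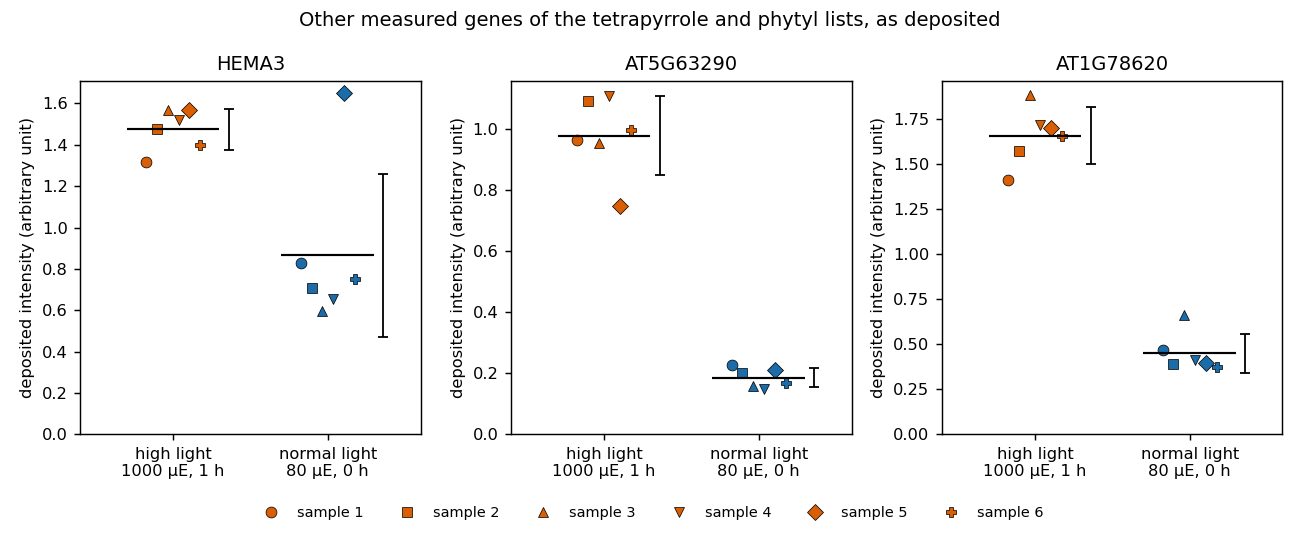
Deposited intensity (arbitrary linear unit) of the other measured genes of the lists in each of the 12 samples, high light on the left and normal light on the right; symbols, bars and brackets as for the 3 genes above. AT5G63290 and AT1G78620 do not overlap between the groups, as is so for 48.0% of all probes on this scale, where the median change of all probes is 1.47 (log2). HEMA3 overlaps through normal light sample 5, at 1.65.

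The genes whose log2 values ran most like those of each of the 3 across the 12 samples were taken from 421 other single-gene probes above 0 in every sample. These correlations are descriptions over samples that share group and scaling. For CHLM they were AT1G32160 (Pearson's r = 0.945, Spearman's rho = 0.92), AILP1 (0.937 and 0.92) and AT4G39690 (0.926 and 0.902). For SIRB they were AT4G05070 (0.934 and 0.92), TPP2, tripeptidyl peptidase II (0.928 and 0.89), and AT4G22490 (0.9096 and 0.86). All 6 of these genes fell in high light by limma, with log2 changes from -0.65 to -3.85, where 22.0% of all probes were called lower. The difference between the groups thus enters each correlation, and picking by likeness to CHLM or SIRB, which fell, favours genes that fell. The largest change, -3.85 for AILP1, rests on dim high light values, at quantile-normalised intensities of 0.0045 to 0.0496. On the deposited scale AT4G05070 and AT4G22490 turned to 0.086 and 0.16, and the other 4 stayed below 0. Measured as deviations from the group means, the correlations were 0.76 to 0.83 for CHLM and 0.63 to 0.77 for SIRB.

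For CHLP the likeness was of another kind. The nearest genes were AT3G29410 (Pearson's r = 0.887, Spearman's rho = 0.53), AT4G19430 (0.739 and 0.59) and AT2G46850 (0.733 and 0.39). After quantile normalisation none of these genes passed the test between the groups, where 15.8% of all probes were called higher and 22.0% lower. Their log2 changes were 0.29, 0.36 and 1.03 (limma adjusted p = 0.62, 0.45 and 0.063). On the deposited scale their changes were 2.12, 2.15 and 2.59, where the median of all probes was 1.47. The rank correlations were lower than Pearson's in each case, and CHLP itself had 1 sample, normal light 3, far below the rest. As deviations from the group means these correlations were 0.75 to 0.89.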

How the data were processed

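The authors' deposited table holds array intensity values on a linear scale for 3439 probes in 12 samples. Background correction, scaling and filters are not given in the sources used here. Groups and sample numbers come from the titles. Probe names came from the platform annotation, matched to the RefSeq table of assembly TAIR10.1: 692 probes name 1 gene (690 matched), 870 several, and 1877 are unlisted. No coordinates or sequences are given.

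Columns were quantile-normalised, values of 0 kept and set to the lowest positive value, 9.02e-06, and log2 values fitted by lmFit and eBayes (limma 3.58.1, R 4.3.3; 2-sided), with Benjamini-Hochberg adjustment over all probes and a threshold of 0.05. The fit was tested on simulated data. These were independent values with the normal light spread in both groups, so likeness of neighbouring samples and unequal spread were not covered. Named genes are the 3 genes, every list gene with a probe of its own, and for each of the 3 the 3 probes of highest Pearson correlation. Genes, lists, scaling and the averaging of neighbouring samples were chosen with earlier results of these data known. The number of arrays limits the precision. Alternatives were other scalings, handling of dim values, limma settings, sample numbers or pairs as blocks, averaged pairs and each sample left out.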

Additional observations from a re-analysis of the deposited data

Results flagged for a closer look

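In 30 groups of 6 log2 values of named genes, 2 held a sample far from the other 5, and by chance alone some 1 in 20 would. Each gap given below is the distance to the nearest sample as a share of the range of the 6 (Dixon's criterion). CHLP (AT1G74470) had normal light sample 3 at a quantile-normalised intensity of 1.04, against 1.995 to 2.92 in the other 5 (gap 0.631). As deposited, that sample stood at 0.809 against 1.53 to 2.86. AILP1, among the genes most like CHLM, had high light sample 2 at 0.0045, against 0.0203 to 0.0496 in the others (gap 0.627), all of them dim values under 0.05. CHLM itself had its lowest quantile-normalised value in the same sample, at 0.0605. Since AILP1 was picked for its correlation with CHLM, this is not a separate observation.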

How the results depend on the processing

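On the deposited scale CHLM turned to 0.038 and SIRB lost its call at -0.013, and probes called numbered 1698 higher and 194 lower, against 543 and 757 after quantile normalisation. With a common median CHLP turned to -1.04. With the pairs of samples averaged the CHLM change of -1.46 lost its call (adjusted p = 0.071), and 330 probes were called higher and 429 lower. After quantile normalisation the ratio of CHLM to CHLP (-1.51) and that of CHLP to SIRB (1.82) became called. The causes were not tested. Leaving out 1 sample gave -1.65 to -1.28 for CHLM, -1.98 to -1.596 for SIRB and -0.15 to 0.15 for CHLP, with 479 to 574 probes higher and 706 to 761 lower. It gave ratio differences of -0.63 to -0.23 (CHLM to CHLP), 0.17 to 0.68 (CHLP to SIRB) and -0.15 to 0.21 (CHLM to SIRB), the last turning without high light sample 6 or normal light samples 3, 5 or 6. Averaged pairs, 3 against 3, cannot bring an exact test of a ratio below 0.10.

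Whether samples of 1 number in the groups belong together is not given by the titles. Across probes, deviations from the group mean had correlations of -0.0063 to 0.065 between samples of 1 number. For 4 of 12 samples the best match among the 6 numbers was the same number. These values do not settle whether the numbers pair the groups. In the fit with a replicate block the changes stayed at -1.46 for CHLM, -1.78 for SIRB and 0.049 for CHLP (limma adjusted p = 0.025, 0.0084 and 0.85), and the exact sign-flip test of the ratios gave adjusted p = 0.66, 0.66 and 0.94 (CHLM to CHLP -0.41, CHLP to SIRB 0.46, CHLM to SIRB 0.052). SIRB, a dim probe, stood at -1.64 with values under 0.05 raised to 0.05.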
